A study of Danio rerio with 12 samples.

Results

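ON bipolar cells are the retinal interneurons that depolarise when light falls on the photoreceptors above them. Their dendrites carry the metabotropic glutamate receptor mGluR6, which is active in darkness, when photoreceptors release glutamate, and which keeps the cation channel TRPM1 closed through the G protein Go. Light lowers glutamate, Go is switched off by RGS proteins, and TRPM1 opens. Nyctalopin, a leucine-rich repeat protein of the dendritic tips, is needed to place TRPM1 there, and loss of mGluR6, TRPM1 or nyctalopin causes congenital stationary night blindness in humans. CaBP5 is a calmodulin-like calcium sensor found in bipolar cells of mammalian retina.

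The genes described here were chosen by symbol, as 10 components of this signalling: the receptors grm6a and grm6b, nyx for nyctalopin, the channels trpm1a and trpm1b, the Go alpha subunit gnao1b, the G protein gamma subunit gng13b, the regulator rgs11, and the calcium sensors cabp5a and cabp5b. The symbols of 9 were present in the table of 32674 genes, each on 1 row; trpm1b was not among them and was not analysed here. All 9 passed the filter of a mean of at least 0.5 FPKM, as did 20320 genes in total. FPKM is the number of sequenced fragments scaled to gene length and library size, so levels of different genes can be set side by side on it.

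The samples were retinas of adult EK strain zebrafish of the F3 generation from a pair of lineages. In the methylmercury (MeHg) lineage the eggs of the F1 generation had spent 24 h in 0.03 µM MeHg, and in the control lineage they had spent 24 h in 0 µM MeHg with the ethanol vehicle; later generations of both met no added MeHg. The comparison asks whether retinal transcripts differ between descendants of exposed and unexposed fish. The labels name 1 lineage per treatment and give neither the number of founding families nor the sex of the fish, so a difference between lineages and an effect of the ancestral exposure cannot be told apart. Used here were 6 libraries of the MeHg lineage (numbers 2 to 7) and 5 of the control lineage (numbers 3, 4, 5, 7 and 8), called biological replicates in the labels.

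Libraries held 4354472 to 6749647 assigned fragments in the MeHg lineage and 2838157 to 5663021 in the control lineage. Photoreceptor, amacrine, Muller glia and bipolar markers were present in every library, with the exception that the rod opsin gene rho was listed at 0 in all 6 MeHg libraries. Control libraries 5 and 7 stood apart, because 9 oocyte markers summed to 904 to 1695 FPKM in them, against 0.470 to 2.74 FPKM in MeHg libraries and 0.324 to 3.2 FPKM in control libraries 3, 4 and 8. The ON bipolar genes were low in the same 2 libraries: for 8 of the 9 both values lay below all of control libraries 3, 4 and 8, which held for 27.4% of all genes tested, and for 6 of the 9 control library 7 was the lowest of 11, which held for 27.3%. The part of oocyte RNA in these low values was not tested, and results are given with and without the 2 libraries. In whole retina, a different number of bipolar cells, a different amount of RNA per bipolar cell and RNA from other cell types cannot be told apart.

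Among the 9 genes nyx and grm6b were higher and cabp5a was lower in the MeHg lineage, and the other 6 did not pass the test (limma on log2(FPKM + 1), Benjamini-Hochberg adjusted p under 0.05 over all genes tested). That is 2 higher and 1 lower of 9, where 8.98% of all genes tested were called, 5.47% as higher and 3.5% as lower. Differences are on the log2(FPKM + 1) scale, MeHg minus control, and their median over the 9 genes was 0.62, against 0.02 over all genes. An unadjusted p under 0.05 was found for 7 of the 9, against 24.1% of all genes. The 9 genes were chosen with earlier results of these data known, so these contrasts with all genes only describe them. With control libraries 5 and 7 left out, nyx was higher and cabp5a and trpm1a were lower, where 8.28% of all genes tested were called, 3.64% as higher and 4.65% as lower, and the median difference over the 9 was 0.26, against -0.0032 over all genes. The genes are described below in the order of the signal.

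**Figure D1:**
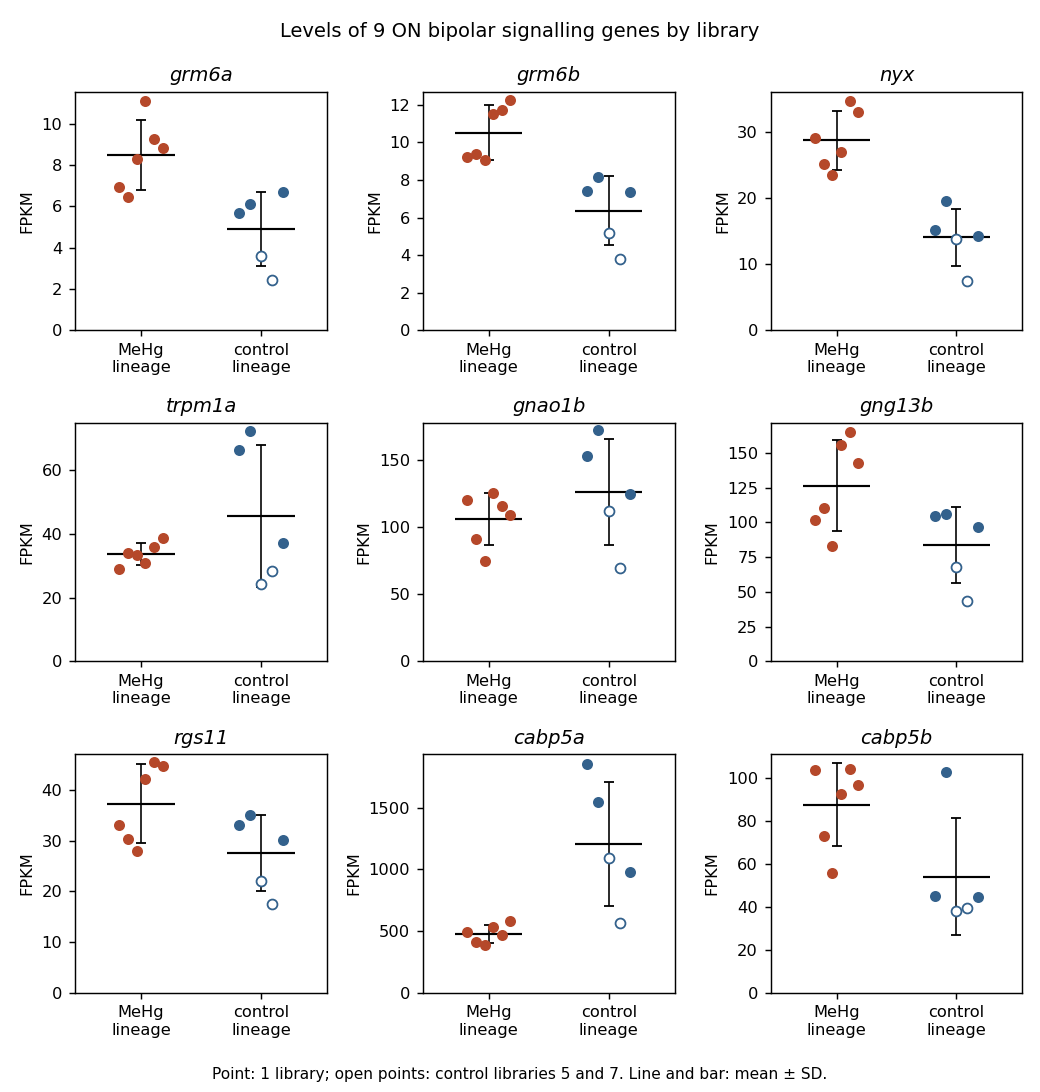
Level in FPKM (linear axes from 0) of the 9 genes in the 6 libraries of the MeHg lineage and the 5 of the control lineage; each point is 1 library, open points are control libraries 5 and 7, and the line and bar are the mean and SD. The 6 MeHg values of nyx (23.4 to 34.7 FPKM) and of grm6b (9.04 to 12.3 FPKM) lie above every control value, and the highest cabp5a value in the MeHg lineage is 585 FPKM.

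The receptor genes had the lowest levels of the set. For grm6b (ENSDARG00000025671) the MeHg libraries ran from 9.04 through a median of 10.4 to 12.3 FPKM, and control libraries 3, 4, 5, 7 and 8 had 7.43, 8.16, 5.15, 3.77 and 7.34 FPKM. Every MeHg value was above every control value, a separation without overlap that was found for 2 of the 9 genes, both higher, and for 7.52% of all genes tested (4.8% higher and 2.72% lower). The mean was 10.5 ± 1.46 FPKM (SD, n = 6) in the MeHg lineage and 6.37 ± 1.84 FPKM (SD, n = 5) in the control lineage, and they differed by 0.68 ± 0.19 on the log2 scale (SE; limma adjusted p = 0.0408). The call was narrow, and was lost when any of 8 single libraries was left out, namely control 5 (adjusted p = 0.106), control 7 (0.0568) and each MeHg library (0.0511 to 0.0924), and with control libraries 5 and 7 both left out (difference of 0.41, limma adjusted p = 0.132). The lineages did not overlap in those 9 libraries either, which then held for 3 of the 9 genes, nyx and grm6b higher and cabp5a lower, and for 13.6% of all genes (6.43% higher and 7.15% lower).

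Its paralog grm6a (ENSDARG00000017742) ran from 6.47 through 8.57 to 11.1 FPKM in the MeHg lineage, and had 5.67, 6.10, 3.59, 2.44 and 6.71 FPKM in control libraries 3, 4, 5, 7 and 8. All but 1 of the MeHg values exceeded the highest control value. Its difference of 0.73 ± 0.22 (log2, SE) did not pass (limma adjusted p = 0.0664), passed without control library 8 (0.0466) and on scaled fragment numbers (0.0479), and was 0.39 (adjusted p = 0.240) without control libraries 5 and 7. This was the gene with fewest reads, 34 to 162 fragments per library, and grm6b had 70 to 252.

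No difference in the balance of the 2 receptor genes was detected. The FPKM of grm6a was 0.691 to 0.964 times that of grm6b in MeHg libraries and 0.647 to 0.914 times in control libraries. The log2 ratio tested was taken of FPKM + 1, not of FPKM. Its mean was -0.29 ± 0.17 (SD, n = 6) in the MeHg lineage and -0.34 ± 0.14 (SD, n = 5) in the control lineage. The means differed by 0.05 ± 0.10 (SE, two-sided exact permutation test over libraries, p = 0.584, also 0.584 adjusted over the 2 paralog pairs compared). The difference was -0.02 without control libraries 5 and 7. How reads that fit both copies of a gene pair were counted is not stated, and this bears on both paralog pairs.

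The largest rise among the 9 genes was in nyctalopin. The transcript of nyx (ENSDARG00000061791) ran from 23.4 through 28 to 34.7 FPKM in the MeHg lineage, and control libraries 3, 4, 5, 7 and 8 had 15.1, 19.5, 13.8, 7.46 and 14.3 FPKM. The lowest MeHg value was above the highest control value. Means were 28.7 ± 4.44 FPKM (SD, n = 6) in the MeHg lineage and 14.0 ± 4.32 FPKM (SD, n = 5) in the control lineage, a rise of 1.02 ± 0.20 on the log2 scale (SE; limma adjusted p = 0.00795). The difference passed when any single library was left out (0.00417 to 0.0227) and without control libraries 5 and 7 (log2 difference 0.78 ± 0.16, SE; limma adjusted p = 0.0134). It rested on 84 to 446 fragments per library.

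The channel gene trpm1a (ENSDARG00000011259) was even in the MeHg lineage and uneven in the control lineage. It ran from 28.9 through 33.5 to 38.5 FPKM in MeHg libraries, and had 66.2, 72.1, 24.1, 28.3 and 37.0 FPKM in control libraries 3, 4, 5, 7 and 8. Control libraries 3 and 4 were above every MeHg library and control libraries 5 and 7 below all of them. The coefficient of variation was 10.3% in the MeHg lineage, the lowest of the 9 genes, and 48.7% in the control lineage (32.2% in control libraries 3, 4 and 8). The difference of -0.30 ± 0.26 (log2, SE) did not pass (limma adjusted p = 0.505). It was -0.73 ± 0.20 (SE) without control libraries 5 and 7 and passed narrowly (limma adjusted p = 0.0481).

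For trpm1a the deposited tables gave different answers. On scaled fragment numbers, which are fragments per gene divided by a size factor and not by length, the MeHg lineage averaged 650 ± 62.6 (SD, n = 6) and the control lineage 703 ± 317 (SD, n = 5). On the log2 scale this was a difference of -0.0027 (limma adjusted p = 0.996), or of -0.39 without control libraries 5 and 7 (limma adjusted p = 0.274), so the call made on FPKM in those libraries was not made on fragments. Each 100 scaled fragments of trpm1a were worth 4.54 to 5.53 FPKM in MeHg libraries and 5.68 to 6.82 FPKM in control libraries, with no overlap. A gene's FPKM per fragment can differ between libraries where fragments are divided among transcripts of different length, and which transcripts these were was not analysed here. Of 17660 genes with a value of FPKM per fragment in every library, 18 (0.102%) had lineages that did not overlap in FPKM per scaled fragment and differed by over 0.2 in the mean log2 value, limits set after the values of trpm1a had been seen. For 6 of the other 8 genes FPKM per fragment varied by a factor of at most 1.02 over the 11 libraries; the factor was 1.07 for rgs11, 1.27 for cabp5a and 1.5 for trpm1a. It was over 1.2 for 25.8% of the 17660 genes.

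**Figure D2:**
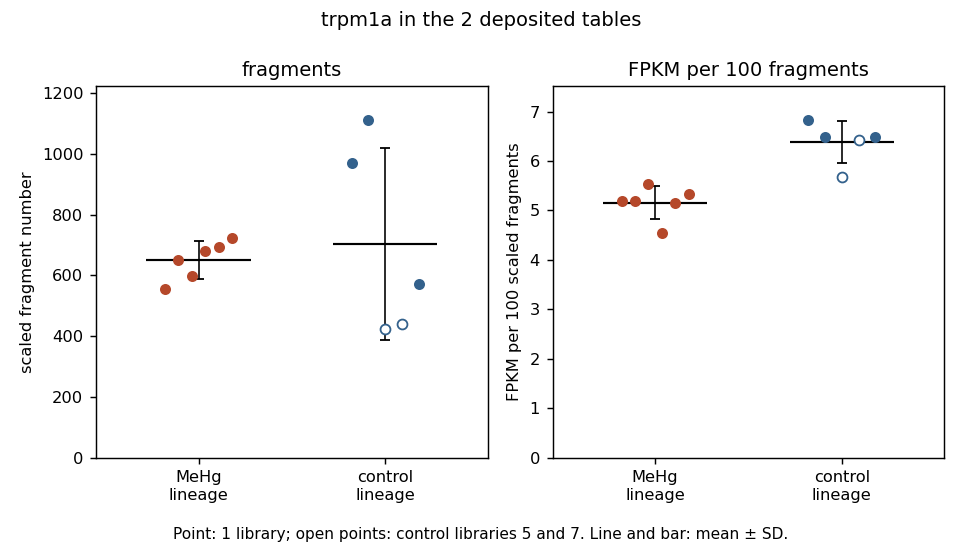
Left, scaled fragment number of trpm1a by library; right, FPKM per 100 scaled fragments of the same gene, both on linear axes from 0. Each point is 1 library (open: control 5 and 7) with the mean and SD; the fragment numbers overlap between the lineages, whereas the MeHg libraries (4.54 to 5.53) all lie below the control libraries (5.68 to 6.82) on the right.

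Neither of the G protein genes passed the test. For gnao1b (ENSDARG00000036058), the alpha subunit that mGluR6 activates, the MeHg libraries ran from 74.5 through 113 to 125 FPKM, and control libraries 3, 4, 5, 7 and 8 had 153, 173, 112, 69.7 and 125 FPKM. The lineages overlapped (log2 difference -0.21 ± 0.22, SE; limma adjusted p = 0.603). With control libraries 5 and 7 left out the difference was -0.51 ± 0.18 (SE) and did not pass either (limma adjusted p = 0.140), 5 of the 6 MeHg values being below all of control libraries 3, 4 and 8. For gng13b (ENSDARG00000037921), the gamma subunit of the same heterotrimer, the MeHg libraries ran from 82.6 through 127 to 165 FPKM, and control libraries had 105, 106, 68.0, 43.3 and 96.6 FPKM. Here 4 of the 6 MeHg values were above every control value (log2 difference 0.62 ± 0.26, SE; limma adjusted p = 0.167; 0.26 without control libraries 5 and 7).

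The regulator rgs11 (ENSDARG00000037646), which speeds GTP hydrolysis by Go, ran from 27.9 through 37.6 to 45.6 FPKM in MeHg libraries and had 33.0, 35.0, 22.1, 17.5 and 30.1 FPKM in control libraries 3, 4, 5, 7 and 8. MeHg libraries 5, 6 and 7 were above every control library, and MeHg libraries 2, 3 and 4 lay among them. A difference of 0.44 ± 0.20 (log2, SE) did not pass (limma adjusted p = 0.207) and was 0.16 without control libraries 5 and 7. The same MeHg libraries 5, 6 and 7 held the 3 highest values of gng13b, and also of grm6a and grm6b. They did not for nyx, trpm1a, gnao1b, cabp5a and cabp5b, and the share over all genes was not counted. Among the 9 genes the profile of rgs11 was nearest to that of gng13b (mean absolute difference of 0.118 in log2 values centred on each gene's mean, over 11 libraries). Genes outside the 9 lay nearer to rgs11, among them kif1b (0.0560) and rtn1b (0.0698), where the median gene differed by 0.406.

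The calcium sensor genes differed in opposite directions, and 1 of the 2 passed. The gene cabp5a (ENSDARG00000002576), the most abundant of the set, ran from 386 through 478 to 585 FPKM in MeHg libraries, and control libraries 3, 4, 5, 7 and 8 had 1858, 1544, 1088, 564 and 977 FPKM. Only control library 7 reached the MeHg range, and 5 of the 6 MeHg values were below it. The mean was 478 ± 73.5 FPKM (SD, n = 6) in the MeHg lineage and 1206 ± 504 FPKM (SD, n = 5) in the control lineage, and they differed by -1.23 ± 0.27 on the log2 scale (SE; limma adjusted p = 0.0144). The call held when any single library was left out (0.000894 to 0.0352), and without control libraries 5 and 7 the difference was -1.57 ± 0.22 (SE; limma adjusted p = 0.00171), with no overlap. On scaled fragment numbers the lineages were apart in all 11 libraries, 1626 to 2716 in MeHg libraries and 2827 to 7602 in control libraries. They were apart there for nyx and grm6b too, and the share of all genes apart on scaled fragment numbers was not counted.

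Its paralog cabp5b (ENSDARG00000028485) ran from 55.7 through 94.7 to 104 FPKM in MeHg libraries, and had 45.3, 103, 38.1, 39.7 and 44.7 FPKM in control libraries 3, 4, 5, 7 and 8. Control library 4 lay within the MeHg range and the other 4 control libraries were below every MeHg library. With all libraries the difference of 0.76 ± 0.26 (log2, SE) did not pass (limma adjusted p = 0.0916), and without control library 4 it was 1.02 and passed (limma adjusted p = 0.00653). It was 0.52 without control libraries 5 and 7 (limma adjusted p = 0.355).

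The balance of cabp5a to cabp5b differed between the lineages. The FPKM of cabp5a was 4.48 to 6.92 times that of cabp5b in MeHg libraries and 14.2 to 41.0 times in control libraries. The mean log2 ratio of FPKM + 1 was 2.45 ± 0.23 (SD, n = 6) in the MeHg lineage and 4.45 ± 0.64 (SD, n = 5) in the control lineage. The difference of -2.0 ± 0.28 (SE) gave p = 0.00433 in a two-sided exact permutation test over libraries, the smallest p that 462 arrangements allow, and 0.00866 adjusted over the 2 pairs. The difference was -2.10 without control libraries 5 and 7 (exact permutation p = 0.0238, again the smallest possible, adjusted p = 0.0476), and it ranged from -2.16 to -1.78 when single libraries were left out.

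**Figure D3:**
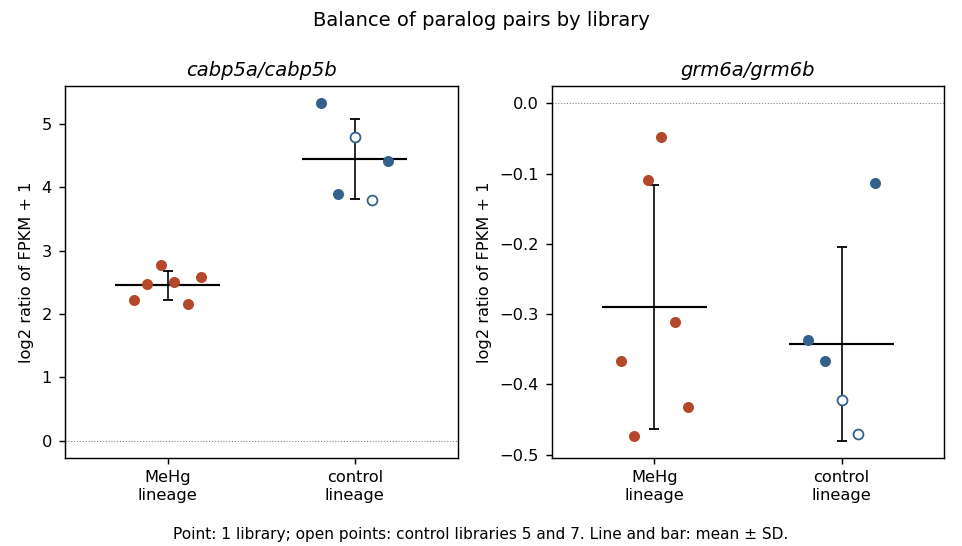
Log2 ratio of FPKM + 1 for cabp5a over cabp5b and for grm6a over grm6b in each library, with the mean and SD (6 MeHg and 5 control libraries; open points are control 5 and 7). The cabp5 ratio is 2.15 to 2.77 in MeHg libraries and 3.80 to 5.33 in control libraries, whereas the grm6 ratios overlap.

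The order of levels differed between the lineages by 2 exchanges of neighbours, gng13b with gnao1b and rgs11 with trpm1a. In the MeHg lineage the genes were, from high to low mean, cabp5a, gng13b, gnao1b, cabp5b, rgs11, trpm1a, nyx, grm6b and grm6a; in the control lineage they were cabp5a, gnao1b, gng13b, cabp5b, trpm1a, rgs11, nyx, grm6b and grm6a. The neighbouring pairs whose ranges over libraries were separate were cabp5a and gng13b, cabp5b and rgs11, and nyx and grm6b in the MeHg lineage, and cabp5a and gnao1b in the control lineage. The other neighbours overlapped in range, although gnao1b was above gng13b in 5 of 5 control libraries and gng13b above gnao1b in 5 of 6 MeHg libraries. By mean FPKM cabp5a ranked 189 among 32674 genes in the MeHg lineage and 50 in the control lineage, and nyx 3061 in the MeHg lineage and 6108 in the control lineage. Each of the 9 genes varied less among MeHg libraries (coefficients of variation of 10.3% to 26%) than among the 5 control libraries (27.1% to 50.6%), as did 65.6% of all genes tested. Against control libraries 3, 4 and 8 alone (4.97% to 52.0%), 4 of the 9 varied less among MeHg libraries, namely trpm1a, nyx, cabp5a and cabp5b, where 48.6% of all genes did, and the other 5 varied more.

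Other markers of bipolar cells were set beside these genes, to show what the cell class as a whole did. Of 10 bipolar markers, 1 rose, none fell and 9 did not pass, where 5.47% of all genes tested were called higher and 3.5% lower. An unadjusted p under 0.05 was found for 3 of the 10, against 24.1% of all genes. The median of their differences was 0.41, against 0.02 over all genes. It was 0.15 when control libraries 5 and 7 were left out, against -0.0032. The one that rose was samsn1a, an adaptor protein gene, with 60.3 ± 13.7 FPKM (SD, n = 6) in the MeHg lineage and 28.3 ± 9.18 FPKM (SD, n = 5) in the control lineage (log2 difference 1.11, limma adjusted p = 0.0138). The homeobox gene vsx1, a defining bipolar transcription factor, averaged 109.5 ± 39.4 FPKM (SD, n = 6) in the MeHg lineage and 81.7 ± 22.2 FPKM (SD, n = 5) in the control lineage (limma adjusted p = 0.415). The 10 markers summed to 322 to 529.5 FPKM in MeHg libraries and 188 to 464 FPKM in control libraries, the low end belonging to control libraries 5 and 7 (188 to 329.5 FPKM), against 382 to 464 FPKM in control libraries 3, 4 and 8. None of the 10 was at 0 in any library. Their part in the differences of the 9 genes was not tested.

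Relative to the mean log2 level of these 10 markers in the same library, a description added after the values were seen and given without a test, nyx was higher and gnao1b and cabp5a were lower in the MeHg lineage with no overlap in 11 libraries. That is 1 higher and 2 lower of 9 genes, against 8.61% of all genes tested (2.02% higher and 6.59% lower). The relative level of nyx was -0.18 to -0.03 in MeHg libraries and -0.91 to -0.66 in control libraries. For gnao1b it was 1.57 to 2.0 in MeHg libraries and 2.13 to 2.47 in control libraries, and for cabp5a 3.69 to 4.07 in MeHg libraries and 5.09 to 6.06 in control libraries. The differences in relative level were 0.68 for nyx, -0.55 for gnao1b and -1.58 for cabp5a, and without control libraries 5 and 7 they were 0.70, -0.59 and -1.65. The marker mean that is subtracted ran from 4.65 to 5.22 in MeHg libraries and from 3.94 to 5.05 in control libraries, so its own difference enters each relative level. Before this step the differences were 1.02, -0.21 and -1.23, and that of gnao1b did not pass (limma adjusted p = 0.603). For rgs11 the relative levels differed by 0.10 and overlapped.

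**Figure D4:**
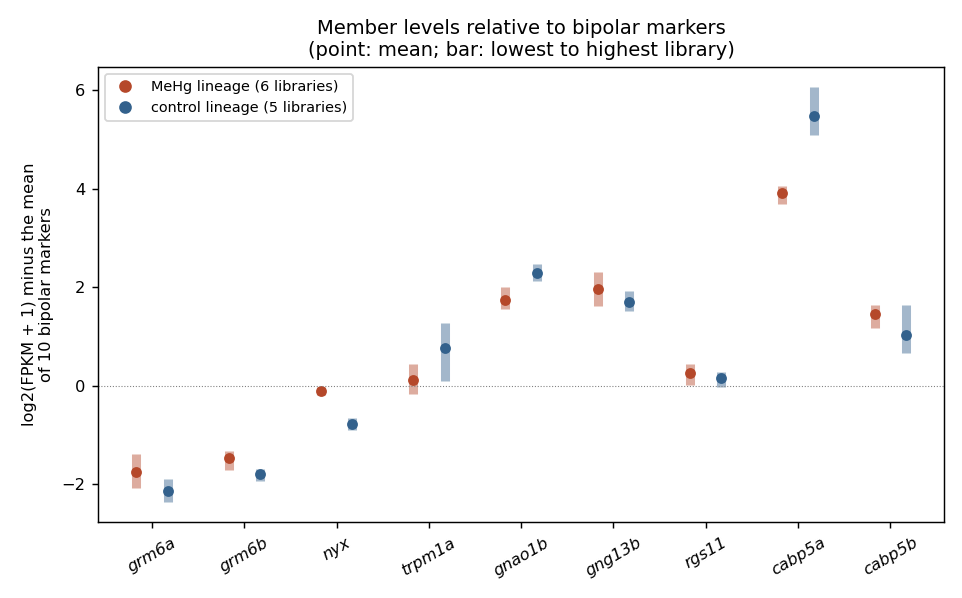
Log2(FPKM + 1) of each gene minus the mean of 10 bipolar markers in the same library; points are means and bars run from the lowest to the highest of the 6 MeHg or 5 control libraries. The bars are apart for nyx (higher in the MeHg lineage) and for gnao1b and cabp5a (lower), and overlap for the other 6 genes.

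A list of 24 further genes of the ON cascade or its synapse, of which 17 were found and tested, was compared in the same fit. In the MeHg lineage 5 rose, 1 fell and 11 did not pass, where 5.47% of all genes tested were called higher and 3.5% lower. An unadjusted p under 0.05 was found for 7 of the 17, against 24.1% of all genes. The median difference of the 17 was 0.29 on the log2 scale, against 0.02 over all genes. With control libraries 5 and 7 left out it was 0.14, against -0.0032. In that fit 3 rose and 2 fell, where 3.64% of all genes tested were higher and 4.65% lower. The regulator gene rgs6, for an R7-type RGS protein like rgs11, had 33.8, 34.5 and 51.4 FPKM as the lowest, median and highest MeHg values, and 14.6, 15.2, 12.9, 11 and 21.9 FPKM in control libraries 3, 4, 5, 7 and 8 (log2 difference 1.28 ± 0.17, SE; limma adjusted p = 0.000707). No MeHg value overlapped a control value, and the call held without control libraries 5 and 7 (1.09, limma adjusted p = 0.00368). On scaled fragment numbers, where the lineages met (611 to 1028 in MeHg libraries and 270 to 614 in control libraries), it passed too (limma adjusted p = 0.00158). The other R7-type genes of the list, rgs7a and rgs7b, averaged 11.4 ± 2.58 and 8.80 ± 1.8 FPKM (SD, n = 6) in the MeHg lineage and 12.9 ± 1.88 and 7.90 ± 5.22 FPKM (SD, n = 5) in the control lineage, with limma adjusted p of 0.512 and 0.583. Depth was low for both, at 71 to 171 fragments per library for rgs7a and 3 to 16 for rgs7b.

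The beta subunit genes gnb3a and gnb3b, whose mammalian counterpart serves both cones and ON bipolar cells, rose as well. For gnb3b, the mean was 3990 ± 573 FPKM (SD, n = 6) in the MeHg lineage and 1771 ± 575.5 FPKM (SD, n = 5) in the control lineage, without overlap (log2 difference 1.24, limma adjusted p = 0.0128; 0.90 and 0.0253 without control libraries 5 and 7). Of 5 cone markers, none at 0 in any library, the opsin gene opn1sw2 rose (log2 difference 1.32, limma adjusted p = 0.00421), the cone arrestin gene arr3a fell (-4.37, limma adjusted p = 7.28e-06) and 3 did not pass. Over all genes tested 5.47% were called higher and 3.5% lower. The 5 cone markers summed to 7231 to 9144 FPKM in MeHg libraries and 4968 to 15290 FPKM in control libraries (10240 to 15290 FPKM in control libraries 3, 4 and 8). The 4 markers other than arr3a, a grouping that is not among the planned lists, leave out the marker that fell. All 4 had positive differences with all libraries, as did 51.5% of all genes tested. These 4 markers summed to 7025 to 8856 FPKM in MeHg libraries and 2623 to 7049 FPKM in control libraries (5232 to 7049 FPKM in control libraries 3, 4 and 8). Without control libraries 5 and 7 the differences were -0.26 for gnat2 and -0.19 for cnga3a, and 0.55 for opn1sw1 and 1.02 for opn1sw2. The part of cones in the difference of gnb3b was not tested. The level of gnb3a was 54.4 ± 12.4 FPKM (SD, n = 6) in the MeHg lineage and 29.2 ± 10.1 FPKM (SD, n = 5) in the control lineage (log2 difference 0.91, limma adjusted p = 0.0260). Its call was lost without control library 5 (0.0716), MeHg library 2 (0.0509), 6 (0.0609) or 7 (0.0612), and without control libraries 5 and 7 (0.108). The gene gnb5b, for the beta subunit that partners R7-type RGS proteins, was singled out after its values were seen: it did not pass with all libraries (log2 difference -0.31, limma adjusted p = 0.459) and was lower without control libraries 5 and 7 (-0.67, limma adjusted p = 0.0477). The related alpha subunit gene gnao1a, likewise chosen, had a log2 difference of 0.42 (limma adjusted p = 0.229), and prkcaa, for protein kinase C alpha, a widely used marker of ON bipolar cells, one of 0.51 (limma adjusted p = 0.106).

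Among the leucine-rich repeat genes of the Lrit family, relatives of nyctalopin found at photoreceptor and bipolar synapses, 2 rose, 1 fell and 1 did not pass. Over all genes tested 5.47% were called higher and 3.5% lower, and these Lrit genes are part of the 17 counted above. The gene lrit2 averaged 60.9 ± 12.7 FPKM (SD, n = 6) in the MeHg lineage and 28.2 ± 7.51 FPKM (SD, n = 5) in the control lineage, without overlap (log2 difference 1.1, limma adjusted p = 0.00470). Low in both lineages, lrit3b had 4.16 ± 1.77 FPKM (SD, n = 6) in the MeHg lineage and 1.12 ± 0.499 FPKM (SD, n = 5) in the control lineage, from 3 to 34 fragments per library (log2 difference 1.24, limma adjusted p = 0.0135; 1.11 and 0.0570 without control libraries 5 and 7). In mammals LRIT3 is needed for the synaptic placement of nyctalopin and TRPM1. Its other copy, lrit3a, averaged 41.8 ± 9.45 FPKM (SD, n = 6) in the MeHg lineage and 46.2 ± 21.6 FPKM (SD, n = 5) in the control lineage (limma adjusted p = 0.953). The level of lrit1a was 49.0 ± 8.28 FPKM (SD, n = 6) in the MeHg lineage and 83.7 ± 23.4 FPKM (SD, n = 5) in the control lineage (log2 difference -0.73, limma adjusted p = 0.0438); this call was lost on leaving out any single library but control 7 (0.0566 to 0.0973), while without control library 7 it was 0.00363 and without control libraries 5 and 7 together 0.00402.

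**Figure D5:**
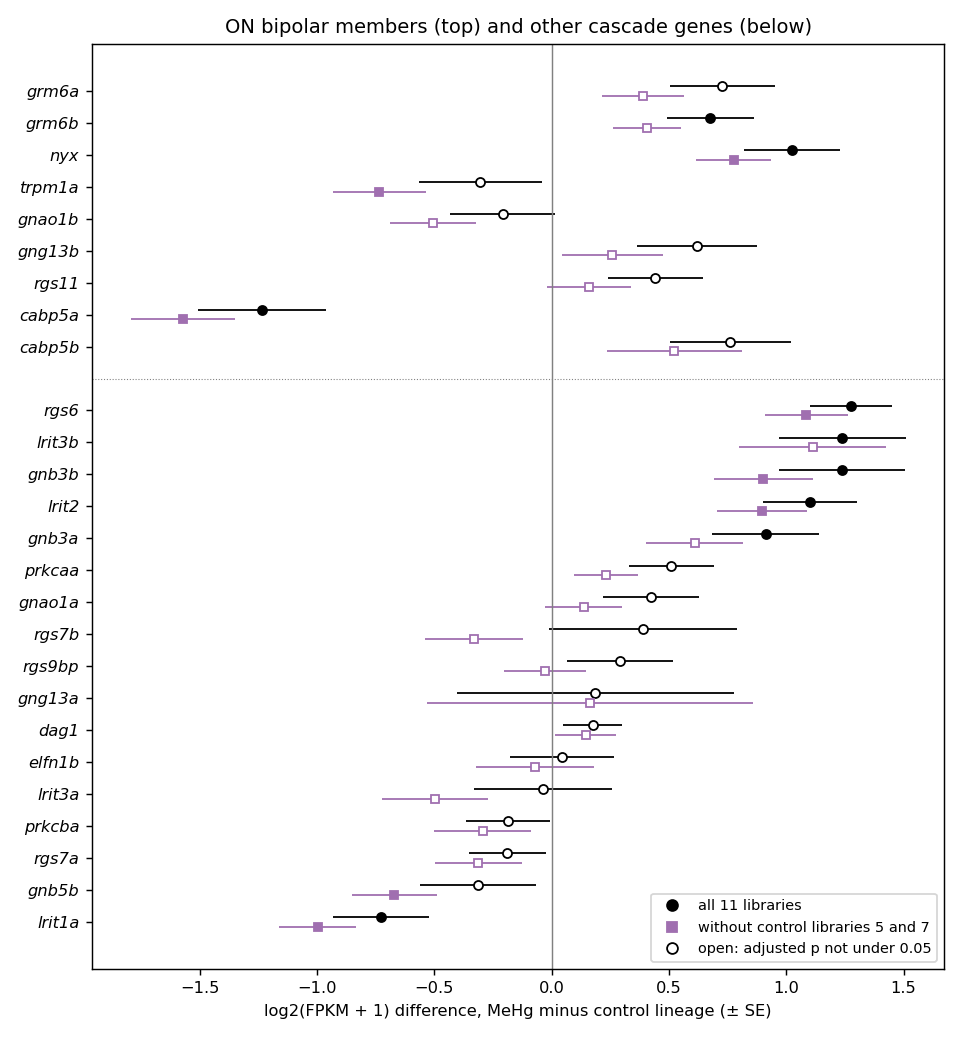
Difference in log2(FPKM + 1), MeHg minus control lineage, with its SE, for the 9 genes (above the dotted line) and the 17 other cascade genes tested (below). Black circles are all 11 libraries and purple squares the fit without control libraries 5 and 7, filled where the limma adjusted p was under 0.05; nyx, rgs6, gnb3b and lrit2 are filled on the right and cabp5a and lrit1a on the left in both fits.

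Related gene families gave no calls in the FPKM fit with all 11 libraries. Of 16 tested genes of the other metabotropic glutamate receptors, the other CaBP genes and the other Trpm channels 0 were called by limma. The share over all genes tested was 8.98%, so few or no calls would be usual in a list this short. An unadjusted p under 0.05 was found for 5 of the 16, against 24.1% of all genes. These were grm1a, grm8a, cabp1b and cabp4 with positive differences and grm2b with a negative one. On scaled fragment numbers 3 of these, grm1a, grm8a and cabp4, were called higher, and without control libraries 5 and 7 in the FPKM fit 1, grm2b, was called lower (-1.43, limma adjusted p = 0.00399). These genes were named after their values were seen. Median log2 differences were 0.18 over 6 other CaBP genes and 0.02 over 7 other metabotropic receptors, against 0.02 over all genes tested. Without control libraries 5 and 7 they were 0.01 and -0.15, against -0.0032. In that fit cabp2a had a difference of -0.79 (limma adjusted p = 0.0574) and cabp4 one of 0.57 (0.245), and neither passed.

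For each of the 9 genes the 2 genes with the most similar course over the 11 libraries were taken, by the mean absolute difference in centred log2(FPKM + 1) among 12435 genes with an assigned symbol. For nyx these were the netrin-G gene ntng2b (0.115) and cacna2d4b (0.118), a calcium channel subunit of photoreceptor and bipolar ribbon synapses, where the median gene differed by 0.568; cacna2d4b averaged 76.4 FPKM in the MeHg lineage and 35.0 FPKM in the control lineage. For grm6a they were adgrl3.1 (0.104) and tenm3 (0.111), and for grm6b slc38a3a (0.0803) and the N-cadherin gene cdh2 (0.0814). The nearest to cabp5a were asphd1 (0.118) and the potassium-dependent sodium/calcium exchanger gene slc24a3 (0.125), and to cabp5b gpr85 (0.176) and sept3 (0.183). Nearest to rgs11 were the kinesin gene kif1b (0.0560) and rtn1b (0.0698), and nearest to gnao1b the GABA transporter gene slc6a1a (0.0632) and dnajc6 (0.0698). The list ended with prph2l (0.0914) and dpysl5a (0.0929) for gng13b, and chchd2 (0.128) and bdnf (0.132) for trpm1a. Such likeness includes what the libraries share, among them the low values in control libraries 5 and 7. It also includes the difference between the lineages, because values were not centred within each lineage. A gene near nyx, such as cacna2d4b, therefore has a similar rise by the way it was chosen.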

How the data were processed

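TruSeq libraries of retinal RNA were read from both ends for 100 bases, per the labels' protocols. The submitters' processing notes name CASAVA 1.8.2, cutadapt, FastQC, TopHat, Cuffnorm and the build Zv9; the sources used here do not give the annotation, the other versions or the strand setting. The authors' deposited table of FPKM was the main source. The second deposited table is a signal, fragment numbers divided by a size factor per library (97.1% to 98.6% of values within 0.01 of a whole multiple of 1 step), not counts, so the planned count tests were not used; assigned fragments are values divided by that step. A column without a name (1 per table) was not used, and control library 1 was not analysed here.

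Genes averaging 0.5 FPKM or more over the 11 libraries were fitted with limma 3.58.1 in R 4.3.3 (log2(FPKM + 1), eBayes with trend, Benjamini-Hochberg, threshold 0.05), a script tested on simulated data. The log2(FPKM + 1) scale understates changes of low genes. Paralog ratios were tested with exact permutations (scipy 1.17.1). The members and gene lists were chosen with earlier results of these data known. Genes named are all members, called cascade genes, called bipolar and cone markers and, per member, the 2 nearest profiles. The rod, Muller glia, ganglion, horizontal and pigment epithelium lists also held called genes, which apart from rho are not named. Further names fall outside the rule for naming. Some are marked as chosen later, and vsx1, rgs7a, rgs7b, lrit3a and the uncalled cone markers and CaBP genes belong with them. List symbols were matched by the table's symbol, gene ID or an older symbol. Alternatives covered pseudocount, filter, scaling, the second table, variance trend, array weights, replicate block and libraries left out.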

Additional observations from a re-analysis of the deposited data

Results flagged for a closer look

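Of 22 sets of values examined for a library far from the others of its lineage (9 genes and 2 paralog ratios in each lineage), 1 was picked out, and chance picks out about 5% of such sets. The FPKM of cabp5b in control library 4 was 102.8, and the nearest of the other control libraries had 45.3, a gap of 0.889 of the whole range of that lineage. The value came from 400 fragments and lay within the range of the MeHg libraries (55.7 to 104 FPKM). The same library had the highest control value for 7 of the 9 genes, cabp5b included and all but grm6a and cabp5a. The share of all genes for which this held was not counted, so it cannot be called particular to the 9.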

How the results depend on the processing

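In 23 alternatives, 22 planned and 1 added after the data were seen, none of the 9 members changed direction. The calls of nyx and cabp5a were lost in the 8 libraries whose numbers occur in both lineages, with the replicate block (limma adjusted p = 0.275 and 0.304) and without it (0.0904 and 0.1035), where fewer samples enter. Deviations of same-numbered libraries from their lineage means correlated at -0.228 to -0.0128. These few values, which include control libraries 5 and 7, cannot settle whether the numbers mark shared handling. With that replicate block 113 genes were higher and 86 lower over all genes, and without it 506 and 278; both left 0 members higher and 0 lower, and 0 higher and 0 lower cascade genes with the block against 3 and 0 without. Without control libraries 5 and 7, 716 genes were higher, 1 member was higher and 2 lower, 3 cascade genes were higher and 2 lower, 1 family gene was lower, and the difference in the grm6a to grm6b ratio turned to -0.0176. On scaled fragments without these libraries 1 member and 3 cascade genes were higher, and 2 cascade and 2 family genes lower. Without a filter 1 member was higher and 0 cascade genes lower, and 0 also without the variance trend. Family genes called higher were 1 with quantile normalization and 3 on scaled fragments; array weights gave 1 lower. For changes where all samples stayed, the cause was not tested.

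With single libraries left out, 705 to 1225 genes were higher and 472 to 905 lower (705 and 472 without control library 5), 1 to 3 members higher and 1 lower, 4 to 5 cascade genes higher and 0 to 1 lower, and 0 family genes higher and 0 to 1 lower. The grm6 ratio difference was 0.0038 to 0.11 and the cabp5 one -2.16 to -1.78. Depth limits grm6a, grm6b and nyx among the 9 members, with under 100 fragments in some libraries. Other genes named here also had under 100 in some libraries, among them rgs7b, lrit3b, rgs7a, grm1a, grm2b, grm8a and cabp1b. The edgeR and DESeq2 alternatives and the trpm1 ratio were not run.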
